A study of Homo sapiens with 19 samples.

Results

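The heterogeneous nuclear ribonucleoproteins (hnRNPs) are RNA-binding proteins that coat new transcripts in the nucleus. They take part in splice site choice, RNA export, RNA stability and translation. Several hnRNP genes splice their own transcripts in more than one way: some alternative exons change the protein, and others place the transcript among those that nonsense-mediated decay (NMD), a surveillance pathway, removes. Described here are 10 genes of the family and their alternative exons: HNRNPA1, HNRNPA2B1, HNRNPC, HNRNPD, HNRNPDL, HNRNPF, HNRNPH1, HNRNPH3, HNRNPK and HNRNPR. They were chosen by name, out of 22760 genes with reads on annotated introns. Their exons were chosen from the annotation alone, as cassette exons (included or skipped between the same neighbours) and pairs of mutually exclusive exons.

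The measurements were reads across splice junctions in 19 ribosomal RNA-depleted libraries of human lines. A375 melanoma cells gave 1 library each of total, nuclear and cytoplasmic RNA, and HEK293 cells and wild-type HUES66 embryonic stem cells gave 1 library each. The other 14 libraries came from HUES66 cells given 1 ug/ml doxycycline for 24, 48 or 96 hr, in a series whose title names Cas13d, an RNA-guided enzyme that cleaves RNA. Of these, 3 were controls, labelled WT in genotype and empty in their library names. Another 3 were knockdowns of all RBFOX2 transcripts (total KD), 4 were knockdowns of the N-short form and 4 of the N-long form of RBFOX2. RBFOX2 binds RNA and acts on splice choice. The labels put the libraries in 4 sets: 24 hr replicate 1 (total, N-short and N-long KD, with no control), 24 hr replicate 2 (control, N-short and N-long KD), 48 hr and 96 hr (all 4 groups, 1 library each). The labels do not say that the libraries came from separate cultures, so p-values measure the spread between these libraries, which may be technical. The 48 and 96 hr libraries share a library series in their names, while the 24 hr replicates are from different series. By their names the wild-type HUES66 library belongs to the series of 24 hr replicate 1 and also carries the word empty, the HEK293 library belongs to the series of 24 hr replicate 2, and the A375 libraries form a series of their own. Time and library set cannot be told apart at 48 and 96 hr, since each time is 1 set.

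Libraries held 6499183 to 27937149 junction reads, of which 96.7% to 98.3% fell on annotated introns. RBFOX2 itself stood at 126 to 134 CPM (a gene's reads scaled to a common library size, here with TMM factors, over reads on annotated introns of 1 gene) in the 3 controls and at 50.65 to 81.8 in the 3 total KD libraries. The N-short KD libraries lay just below the controls, at 114 to 124, a difference that did not pass (log2 -0.06 ± 0.07 SE, edgeR adjusted p = 1). The N-long KD libraries lay at 77.9 to 90.9. The stem cell markers POU5F1, LIN28A and DNMT3B were at 1079, 324 and 1571 CPM in wild-type HUES66 and at 0.634, 0.127 and 5.20 in A375. All marker values are CPM without TMM factors. Of the melanocyte markers, SOX10 was at 107 CPM and MITF at 41.6 in A375, but PMEL was at only 0.507 there. In wild-type HUES66 SOX10 was at 1.40, MITF at 0.871 and PMEL at 50.6, so PMEL went the other way. In HEK293 they were at 0, 8.78 and 0.778. SOX2 and MLANA had no reads counted for them. The counts hold only reads on annotated introns of 1 gene, so this does not show that RNA of SOX2 or MLANA was absent.

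The 10 genes had 48 annotated events, 39 cassette exons and 9 mutually exclusive pairs. Of these, 25 events (21 cassette exons and 4 pairs) in 9 genes had at least 20 informative reads per library on average and a pooled inclusion of 2% to 98%, and were tested together with 7125 events of all genes. HNRNPF had no annotated event of either kind. Inclusion is the percentage of inclusion reads among inclusion plus skipping reads, where inclusion reads are the mean of the exon's 2 introns. In 8 of the 25 events 1 of these introns was nearly empty, with under 10% of the reads of the other, so that inclusion there rests mostly on 1 intron. These were 3 HNRNPC cassette exons and 1 HNRNPC pair, 2 HNRNPH1 cassette exons and both HNRNPH1 pairs.

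Of the coding cassette exons on which the results turn, 4 are printed first, so that their length and letters can be read beside the values. Each is given 5′ to 3′ on the transcript strand as in the GENCODE 29 transcripts (GRCh38), with the exon in capitals and up to 12 coding bases of the neighbouring exons in lower case. All 4 have a length divisible by 3, so that skipping removes whole codons.
HNRNPA2B1 36 nt exon, chr7:26197831-26197866, minus strand: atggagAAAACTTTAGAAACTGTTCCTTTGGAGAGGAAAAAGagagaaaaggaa
HNRNPD 57 nt exon, chr4:82371528-82371584, minus strand: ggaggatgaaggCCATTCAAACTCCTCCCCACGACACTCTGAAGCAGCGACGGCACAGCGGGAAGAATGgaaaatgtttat
HNRNPD 147 nt exon, chr4:82356537-82356683, minus strand: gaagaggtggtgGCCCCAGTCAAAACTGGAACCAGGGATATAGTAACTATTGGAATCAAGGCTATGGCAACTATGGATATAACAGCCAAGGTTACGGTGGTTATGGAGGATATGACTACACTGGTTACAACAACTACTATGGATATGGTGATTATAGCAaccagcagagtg
HNRNPK 72 nt exon, chr9:83973902-83973973, minus strand: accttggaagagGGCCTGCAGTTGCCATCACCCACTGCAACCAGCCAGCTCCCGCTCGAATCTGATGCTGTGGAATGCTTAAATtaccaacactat

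The HNRNPA2B1 exon adds 12 codons directly after the first codons of the protein and separates the B1 form, which has it, from the A2 form. The HNRNPD exons of 57 and 147 nt (19 and 49 codons) are the ones whose combinations give the AUF1 protein isoforms. The HNRNPA1 exon adds 52 codons to the glycine-rich tail and gives the longer A1-B form. The HNRNPD 147 nt exon was 41.5% G and C and 58.5% purine, and the HNRNPA2B1 exon was 33.3% and 63.9%, against medians of 47.7% and 52.1% over the 6869 tested cassette exons. Of the 21 tested hnRNP cassette exons, 10 (47.6%) had a length divisible by 3, against 46.5% of all tested cassette exons, and 14 (66.7%) overlapped coding sequence, against 77.5%. The letters GCATG and TGCATG, the core that RBFOX proteins bind, were searched on the transcript strand within the exons. TGCATG matches are also GCATG matches. None of the 21 exons held either, while 9.91% and 2.71% of all tested cassette exons did. The introns beside them, where RBFOX sites often lie, were not searched.

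More of these exons differed between the 48 and 96 hr sets than in any other comparison fitted. Of the 25 events, 14 passed the test (edgeR quasi-likelihood test, Benjamini-Hochberg adjusted p under 0.05), 8 with higher and 6 with lower inclusion at 96 hr, against 16.0% of all 7125 events tested (8.29% higher and 7.66% lower). The hnRNP events are deep, with a median of 979 informative reads per library against 49.9 for all events tested, and more of the deeper events pass: among the 117 events with at least 500 reads, 50.4% passed, and among the 19 hnRNP events of that depth 13 did. Of the 17 hnRNP events with reads on both introns, 10 passed, 5 in each direction. In limma on log2 ratios 4 of the 25 passed: the HNRNPDL 105 nt, HNRNPD 57 nt and HNRNPC 46 nt exons and the HNRNPC pair of 46 and 163 nt. The events that passed in edgeR were in HNRNPA1, HNRNPA2B1, HNRNPC, HNRNPD, HNRNPDL, HNRNPH1 and HNRNPK.

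HNRNPDL encodes a close relative of HNRNPD. Its 105 nt exon (chr4:82425563-82425667, minus strand, non-coding) occurs in 3 annotated transcripts, all of them annotated as NMD targets. At 48 hr its inclusion was 14.1% in the control, 16.2% in total KD, 13.3% with N-short KD and 15.7% with N-long KD. At 96 hr it was 4.45%, 6.18%, 6.18% and 4.51% in these groups. All 4 libraries of 48 hr lay above all 4 of 96 hr, a fall of 9.49 ± 1.69 points (SD over 4 library pairs) and of 1.65 ± 0.14 (SE) in log2 odds, with an edgeR adjusted p of 9.4e-11. The reads behind this were 54 to 67 on the exon and 336 to 351 on the skipping intron at 48 hr, and 33 to 39 and 516 to 763 at 96 hr. The 24 hr libraries did not lie in 1 place: replicate 1 had 3.80% to 4.54% and replicate 2 had 8.39% to 9.71%, and these ranges did not overlap either. Wild-type HUES66, whose library shares a series with 24 hr replicate 1, had 3.90%, within that set's range.

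HNRNPDL reads moved with this exon between the 48 and 96 hr sets. The gene stood at 385 CPM in the control, 366 in total KD, 390 with N-short KD and 385 with N-long KD at 48 hr, and at 570, 556, 570 and 592 at 96 hr. The difference of 0.585 ± 0.027 in log2 (SE; 1.50-fold) was the largest of the 10 genes, with an edgeR adjusted p of 5.9e-19. The 24 hr sets did not show the same pairing. Replicates 1 and 2 had 543 to 593 and 548 to 557 CPM, overlapping ranges, although their exon inclusion differed. Between these sets the exon changed by 1.29 ± 0.20 in log2 odds (adjusted p = 0.00015, edgeR) and the gene by -0.07 ± 0.03 in log2 (adjusted p = 0.11, edgeR).

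**Figure D1:**
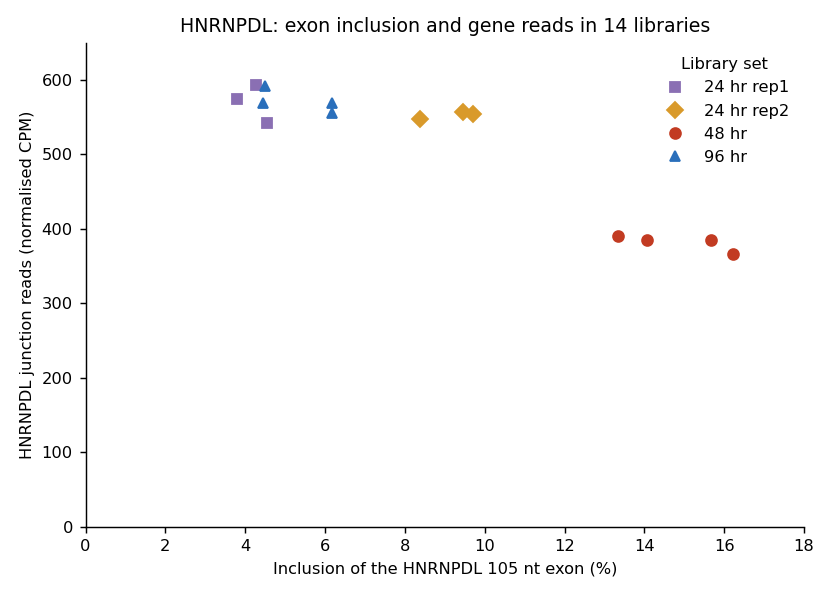
HNRNPDL junction reads (vertical axis, TMM-normalised CPM, from 0) against inclusion of its 105 nt exon (horizontal axis, percent), 1 point per doxycycline-treated HUES66 library, with a marker for each of the 4 library sets. The 4 libraries of 48 hr stand apart at 366 to 390 CPM and 13.3% to 16.2%, while the 24 hr replicate 2 libraries have 8.39% to 9.71% at the gene level of the other sets.

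HNRNPD, also known as AUF1, binds AU-rich elements and takes part in mRNA decay. Its 2 coding exons moved in opposite directions between the sets. The 57 nt exon was included in 71.5%, 68.4%, 67.5% and 71.2% of reads at 48 hr (control, total, N-short and N-long KD) and in 80.8%, 84.5%, 79.3% and 82.7% at 96 hr. The sets did not overlap, and the rise was 12.2 ± 2.8 points (SD, 4 pairs; edgeR adjusted p = 1.1e-09). The 147 nt exon was included in 52.8%, 54.9%, 53.4% and 53.4% at 48 hr and in 42.2%, 43.8%, 43.4% and 41.9% at 96 hr. The sets did not overlap here either, and the fall was 10.8 ± 0.7 points (SD, 4 pairs; edgeR adjusted p = 2.9e-10). The 57 nt exon also differed between the 24 hr sets, with 80.9% to 82.4% in replicate 1 and 69.7% to 75.2% in replicate 2 (log2 odds -0.66 ± 0.11 SE for replicate 2 against 1, adjusted p = 0.00093, edgeR). The 147 nt exon had 46.1% to 47.4% in replicate 1 and 50.3% to 50.9% in replicate 2, a difference that did not pass (adjusted p = 0.085, edgeR).

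HNRNPA2B1 encodes a splicing regulator that also takes part in RNA transport. Inclusion of its B1 exon of 36 nt was 16.9%, 19.5%, 16.5% and 17.4% at 48 hr and 24.7%, 26.6%, 24.3% and 24.2% at 96 hr (control, total, N-short and N-long KD). The rise of 7.41 ± 0.495 points (SD, 4 pairs) had an edgeR adjusted p of 1.1e-09. The 48 hr libraries were the lowest of all 15 HUES66 libraries: 24 hr replicate 1 had 24.4% to 24.7%, replicate 2 had 20.7% to 22.9%, and the wild type had 24.9%.

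HNRNPC, which binds uridine-rich tracts as a tetramer, has several alternative non-coding exons in its annotation. Its 46 nt exon (chr14:21268623-21268668, minus strand), non-coding in its 3 annotated transcripts, was nearly absent at 48 hr, with 4 to 8 reads on the exon against 882 to 1109 skipping reads. Its inclusion was 0.669%, 0.449%, 0.899% and 0.408% there and 3.84%, 3.45%, 2.58% and 2.92% at 96 hr (control, total, N-short and N-long KD). The rise was 2.44 ± 0.25 in log2 odds (SE; edgeR adjusted p = 5.1e-09). Its mutually exclusive pairing with the 163 nt exon, which shares the reads of the 46 nt exon, moved the same way, by 29.7 ± 5.0 points (SD, 4 pairs; edgeR adjusted p = 8.4e-08), with the 163 nt exon itself at an inclusion difference of -0.10 ± 0.49 points (adjusted p = 0.93, edgeR). Among the other non-coding exons, that of 26 nt (chr14:21263311-21263336, minus strand) was included in 70.7% to 79.6% at 48 hr and in 76.6% to 81.2% at 96 hr. These ranges overlapped, but each of the 4 pairs rose, by 4.23 ± 2.69 points (SD; edgeR adjusted p = 0.0016). The 272 and 519 nt exons share its downstream intron, so their passing the test is not separate evidence.

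HNRNPH1 binds runs of guanines. Its 50 nt exon (chr5:179615546-179615595, minus strand, 47 coding bases) was included in 94.0%, 94.2%, 94.0% and 94.3% at 48 hr and in 91.7%, 90.4%, 90.5% and 90.3% at 96 hr (control, total, N-short and N-long KD). All 4 libraries of 48 hr lay above the other 10 treated libraries (89.4% to 91.7%), and the fall to 96 hr was 3.39 ± 0.79 points (SD, 4 pairs; edgeR adjusted p = 3.8e-06). The 2 mutually exclusive pairs of HNRNPH1 passed in the edgeR test too, at log2 odds of 0.420 ± 0.085 for the 90 nt exon against another of 90 nt and -0.74 ± 0.16 for the same exon against one of 60 nt. They rest on 1 well-covered intron. When the smaller of each exon's 2 introns is counted, neither passes (edgeR adjusted p = 0.27 for both): the first moves to 1.85 and the second changes sign, also to 1.85. Neither passes in limma.

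Smaller differences were seen in HNRNPA1, which represses splice sites, and HNRNPK, which binds cytidine-rich RNA. Inclusion of the HNRNPA1 156 nt exon was 11.5%, 8.94%, 11.3% and 9.58% at 48 hr and 8.92%, 7.16%, 8.29% and 8.08% at 96 hr (control, total, N-short and N-long KD). The lowest library of 48 hr, total KD, lay only just above the highest of 96 hr, the control. Within pairs the exon fell by 2.22 ± 0.70 points (SD, 4 pairs; edgeR adjusted p = 5.8e-05). The HNRNPK 72 nt exon went from 86.1% to 87.8% at 48 hr to 83.9% to 86.0% at 96 hr. Its adjusted p of 0.024 (edgeR) rose above 0.05 when any of 5 libraries was left out: the control and N-short KD of either time, or total KD at 48 hr, with a highest adjusted p of 0.51 over all its alternatives. The HNRNPR exons near its start, of 166 and 169 nt, which overlap each other, were lower at 96 hr in 4 of 4 pairs without passing (adjusted p of 0.082 and 0.11, edgeR). The HNRNPR exons of 177 and 114 nt and the HNRNPH3 139 nt exon had mean differences of 0.325, 0.773 and -0.330 points between the sets, each smaller than its SD over pairs.

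**Figure D2:**
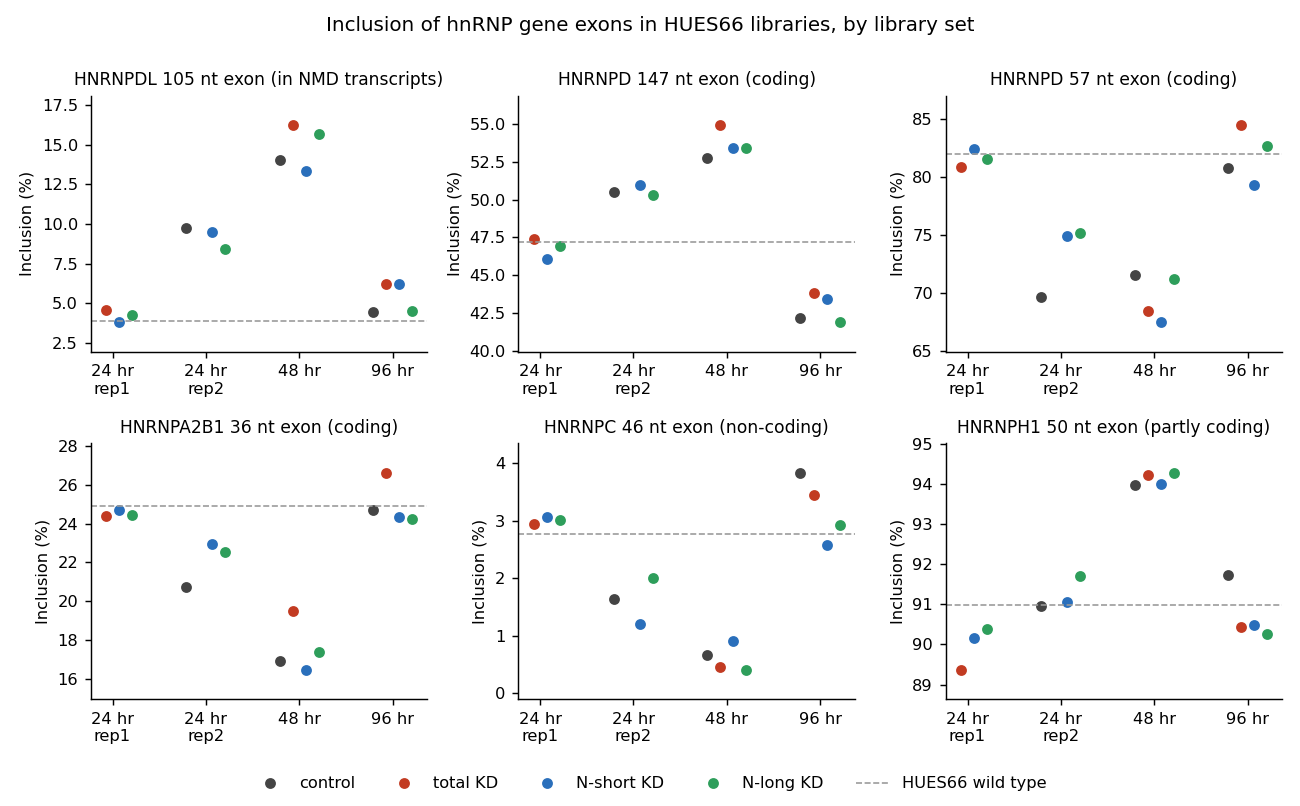
Inclusion (vertical axis, percent, scaled to each panel and not from 0) of 6 hnRNP exons in the 14 doxycycline-treated HUES66 libraries by library set (horizontal axis), coloured by group. The dashed line is the wild-type HUES66 library. In each panel the 4 libraries of 48 hr lie apart from the 4 of 96 hr, and the 3 libraries of 24 hr replicate 1 lie near the wild type, which is of the same library series.

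In 3 exons the 2 sets of 24 hr also differed: the HNRNPDL 105 nt, HNRNPD 57 nt and HNRNPC 46 nt exons passed, against 1.09% of all events tested. The HNRNPC exon had 2.94% to 3.07% in replicate 1 and 1.19% to 2.01% in replicate 2 (adjusted p = 0.033, edgeR). In the HNRNPDL and HNRNPC exons replicate 2 lay between replicate 1 and the 48 hr set, and in the HNRNPD exon its control, at 69.7%, lay within the 48 hr range. Both sets have the same labelled time and differ in library series. Of the 10 genes 5 passed between the 24 hr sets, 3 higher and 2 lower in replicate 2, against 34.3% of all genes. This comparison was chosen after the data were seen.

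Gene reads also differed between the 48 and 96 hr sets. Of the 10 genes, 9 passed, 8 higher and 1 lower at 96 hr, against 59.6% of the 13393 genes tested (29.5% higher and 30.0% lower). The median log2 fold change was 0.34 over the 10 genes and -0.01 over all genes. HNRNPK stood at 1857 to 1988 CPM at 48 hr and 2555 to 2705 at 96 hr, with no overlap (log2 fold change 0.45 ± 0.02 SE, adjusted p = 3.8e-17, edgeR). HNRNPF, which like HNRNPH1 binds guanine runs, went from 67.7 to 79.0 CPM to 95.45 to 103 (0.40 ± 0.04, adjusted p = 8.1e-10, edgeR). HNRNPD, HNRNPH1 and HNRNPA2B1 rose by 0.346, 0.345 and 0.326, HNRNPC by 0.24 and HNRNPR by 0.18 on the log2 scale. HNRNPH3 was at 514 to 635 CPM at 48 hr and 546 to 585 at 96 hr, a difference of 0.02 ± 0.03 in log2 that did not pass (edgeR adjusted p = 0.62). HNRNPA1 was the exception in direction, with 4127 to 4347 CPM at 48 hr and 4002 to 4114 at 96 hr. Its fall of 0.07 ± 0.02 on the log2 scale had an adjusted p of 0.013 (edgeR), which rose to at most 0.13 when the control or N-short KD of 48 hr or the N-short or N-long KD of 96 hr was left out or when time replaced the library set. HNRNPA1 has 74 annotated pseudogenes named after it, the most of the 10, and near-identical copies can exchange reads in alignment, so its values are less certain.

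Most other genes of the family that were tested were also higher at 96 hr. Of 16 considered (HNRNPA0, HNRNPA3, HNRNPAB, HNRNPH2, HNRNPL, HNRNPLL, HNRNPM, HNRNPU, HNRNPUL1, HNRNPUL2, SYNCRIP, RALY, RBMX, PCBP1, PCBP2 and PTBP1), 14 were tested. HNRNPA0 and PCBP1 were not tested. Only reads on annotated introns were counted, so this does not show that RNA of HNRNPA0 or PCBP1 was scarce. At 96 hr against 48 hr 11 of the 14 passed, all 11 higher, against 29.5% of all genes called higher, with a median log2 fold change of 0.245. HNRNPH2, HNRNPUL2 and RALY did not pass (edgeR adjusted p of 0.14, 0.26 and 0.26). The highest was HNRNPM, at 0.91 ± 0.03 (SE). Against the control 0 of the 14 passed in edgeR in any of the 3 knockdowns, and 0 had an unadjusted p under 0.05. Of all 13393 genes tested, 1742, 543 and 595 had such a p in total, N-short and N-long KD.

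**Figure D3:**
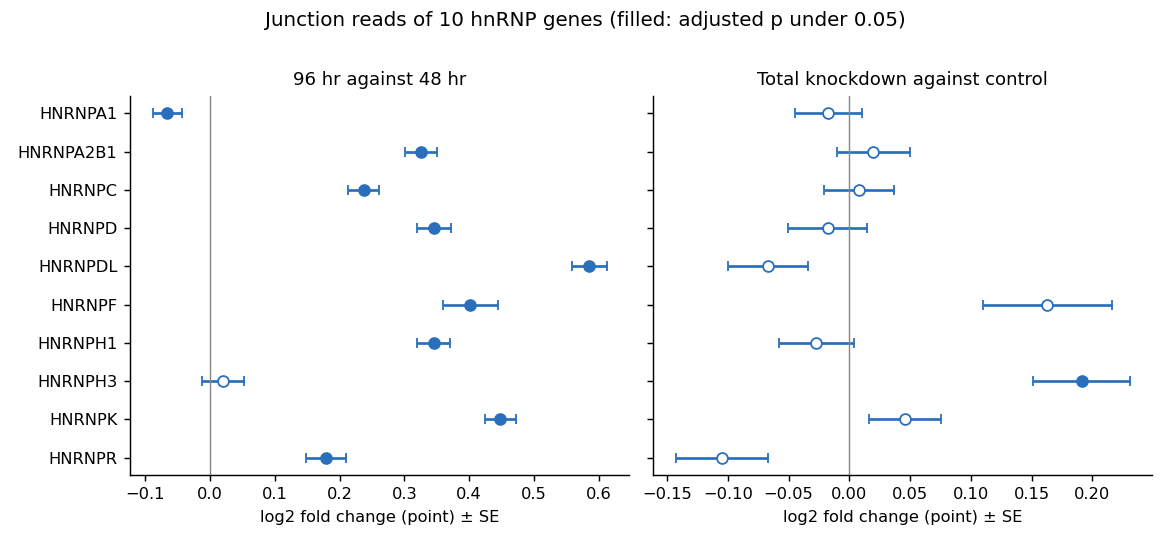
Log2 fold changes (horizontal axes, point ± SE from edgeR, with a different range in each panel) of junction reads of the 10 hnRNP genes at 96 hr against 48 hr (left) and in total KD against control (right). Filled points have an adjusted p under 0.05: 9 genes in the left panel and HNRNPH3 in the right.

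Few of these genes or exons passed in the RBFOX2 knockdowns. In total KD 1 of the 10 genes passed, against 2.28% of all genes tested. This was HNRNPH3, which encodes a small relative of HNRNPH1. Its CPM was 591 at 24 hr, 635 at 48 hr and 585 at 96 hr in total KD, against 502 at 24 hr replicate 2, 533 at 48 hr and 546 at 96 hr in the controls. The 3 total KD libraries lay above the 3 controls, and the difference was 0.19 ± 0.04 in log2 (SE; edgeR adjusted p = 0.0037). The call was lost when the 48 hr total KD library was left out or when the library set was replaced by time, where the highest adjusted p was 0.14. HNRNPF (0.16 ± 0.05, adjusted p = 0.11) and HNRNPR (-0.105 ± 0.038, adjusted p = 0.17) came next by size in edgeR. With wild-type HUES66 added as a control, HNRNPR passed as well (-0.11 ± 0.03 SE, adjusted p = 0.046, edgeR). The other 7 genes lay between -0.07 and 0.05 on the log2 scale.

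Of the exons, 1 of 25 passed in total KD, against 1.31% of all events tested. It was the HNRNPA1 156 nt exon, which was lower in total KD than in the control of its own set by 2.55 points at 48 hr (8.94% against 11.5%) and 1.75 points at 96 hr (7.16% against 8.92%). The total KD library of 24 hr, with 9.94%, has no control in its set. The log2 odds were -0.33 ± 0.08 (SE; adjusted p = 0.023, edgeR). This exon's upstream intron had a mean of 706 reads and its downstream intron 142, and with the smaller of the 2 counted the call was lost. It was also lost in limma, with time in place of the set, and when any of the control or total KD libraries of 48 or 96 hr was left out, with a highest adjusted p of 0.82. In the authors' deposited tables, which give control minus knockdown, the differences of this exon were 0.014, 0.026 and 0.019 at 24, 48 and 96 hr, with adjusted p-values of 1, 0.89 and 0.90. In N-long KD it was lower than the control in 3 of 3 sets, with a mean difference of -1.10 ± 0.71 points (SD; adjusted p = 0.89, edgeR). The HNRNPC 26 nt exon was higher in total KD in both sets with a control, by 4.34 ± 0.53 points (SD), without passing (adjusted p = 0.13, edgeR). It passed when the total KD library of 24 hr, whose set has no control, was left out (adjusted p = 0.013) or when wild-type HUES66 was added as a control of that set (adjusted p = 0.018), both with edgeR, and so did the 272 and 519 nt exons that share its reads. The HNRNPA2B1 exon was higher by 2.24 ± 0.455 points (SD) in the same 2 sets (adjusted p = 0.49, edgeR). The B1 exon was thus 19.5% in total KD against 16.9% in the control at 48 hr, a difference smaller than that between the 48 and 96 hr controls.

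No hnRNP gene or exon passed in edgeR in N-short KD against control, N-long KD against control or N-long against N-short KD. The shares of all genes that passed were 0.00747%, 0.0224% and 0.0149%, and those of all exons were 0.0140%, 0.449% and 0.351%. Without the N-long KD library of 24 hr replicate 1, the HNRNPH1 pair of 90 nt exons passed in N-long against N-short KD (log2 odds 0.38 ± 0.09 SE, adjusted p = 0.036, edgeR). At an unadjusted p under 0.05 there were 0 of the 10 genes in each of these comparisons and 1, 2 and 2 of the 25 events. Over all features there were 543, 595 and 679 of 13393 genes and 299, 384 and 353 of 7125 events. DESeq2 on genes and limma on exons also called 0. The gene differences were small, in log2 from -0.01 to 0.09 for N-short KD and from -0.03 to 0.10 for N-long KD, with HNRNPF highest in both (0.09 ± 0.05 and 0.10 ± 0.05 SE). The 3 knockdowns share their controls. In the authors' deposited tables, cassette and mutually exclusive events of these genes with an adjusted p under 0.05 and a difference of at least 0.1 numbered 1 in total KD at 96 hr, 1 in N-short KD at 96 hr and 1 in N-long KD at 48 hr, and 0 in the other 6 comparisons. All events in the authors' deposited tables that passed were 0.0787%, 0.00236% and 0.0217% in those 3 comparisons. For total KD at 24 and 48 hr the authors' deposited tables gave 0.0517% and 0.126%. The authors' deposited tables gave 0.00380% and 0.00483% for N-short KD at 24 and 48 hr, and for N-long KD at 24 and 96 hr 0.00748% and 0.0160%. The 3 are mutually exclusive exons of HNRNPH1, whose differences in the authors' deposited tables were 0.262, 0.278 and -0.359, with the N-long KD value opposite in sign to the others. With no cut on the difference, 2 HNRNPA2B1 cassette exons also had an adjusted p under 0.05 at 24 hr in total, N-short and N-long KD. Their differences were -0.018 and -0.02 in each knockdown, with rMATS adjusted p-values from 3.9e-07 to 0.00013. Neither was among the 25 events tested here. The share of all events in the authors' deposited tables with no cut on the difference is not given here. In the junction reads the HNRNPH1 pair of 90 nt exons was at 64.0% in the control, 55.9% in total KD, 58.7% with N-short KD and 62.9% with N-long KD at 96 hr. At 48 hr the same pair was at 51.1%, 51.8%, 50.4% and 59.8%. Differences within a single time were not tested, since each of these times has 1 library a group. In the fit over all library sets the pair did not pass in any knockdown comparison.

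Between the lines with no labelled treatment, reads of these genes were lower in A375 than in HUES66. Each of these lines is in a different library series, so line and series cannot be told apart. With 1 library a line these are comparisons of libraries, with no test, and intervals are 95% exact intervals that cover counting error only. In bulk RNA, fewer cells of a type and less RNA per cell cannot be told apart. All 10 genes had a lower CPM (here without TMM) in A375 total RNA than in wild-type HUES66, and 3 by at least 2-fold, against 45.1% of all genes past that fold in either direction. HNRNPH3 was at 199 CPM in A375 and 539 in HUES66, a ratio of 0.369 (0.350 to 0.388). HNRNPD was at 413 and 1027 (ratio 0.402, 0.387 to 0.417) and HNRNPC at 619 and 1435 (ratio 0.431, 0.418 to 0.444). HNRNPR differed least, at 368 and 390. In 9 of the 10 genes A375 lay below the lowest of the 15 HUES66 libraries, with HNRNPR within their range. The share of all genes below that range is not given here, so this count does not set the hnRNP genes apart. The median log2 ratio of A375 to HUES66 was -0.79 over the 10 genes and 0.00 over all genes, and TMM factors moved all genes by -0.15 and kept all 10 lower.

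HEK293 lay between A375 and HUES66 in 8 of the 10 genes. HNRNPH3 was at 485 CPM in HEK293, and A375 was lower by more than 2-fold (ratio 0.409, 0.386 to 0.434), the only one of the 10 past that fold between these lines, against 38.1% of all genes. HNRNPA1 was highest in HUES66 (4253 CPM), then A375 (3133) and HEK293 (2358). HNRNPR was highest in HEK293 (440 CPM). Against HUES66 no hnRNP gene reached 2-fold in HEK293, where 40.1% of all genes did, and 9 of 10 were lower. The median log2 ratio of HEK293 to HUES66 was -0.41 over the 10 genes and 0.10 over all genes. With TMM factors, which moved all genes by -0.25, all 10 were lower and HNRNPA1 and HNRNPD passed 2-fold, at log2 ratios of -1.10 and -1.08.

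Differences in exon inclusion of at least 10 points were found in 3 of 24 hnRNP events between A375 and HEK293 (20.1% of all events), 3 of 23 between A375 and HUES66 (20.9%) and 2 of 24 between HEK293 and HUES66 (21.9%). The largest with reads on both introns was the HNRNPR 166 nt exon (chr1:23340852-23341017, minus strand). It was included in 39.5% of reads in A375 (95% Wilson interval 32.2 to 47.3), 50.6% in HEK293 (43.2 to 57.9) and 55.7% in wild-type HUES66 (51.5 to 59.9), and in 52.2% to 62.2% in the treated HUES66 libraries. Both A375 and HEK293 lay below all 15 HUES66 libraries. The HNRNPR 169 nt exon, which overlaps it and shares its downstream intron and skipping reads, was at 40.99%, 49.1% and 54.0%. The HNRNPD 147 nt exon was at 54.7% in A375 (49.9 to 59.5), 42.8% in HEK293 (39.1 to 46.5) and 47.2% in HUES66 (45.6 to 48.9). Both A375 and HEK293 lay within the 41.9% to 54.9% that the HUES66 library sets spanned. The HNRNPH1 179 nt exon also passed 10 points in all 3 pairs, but on 24 to 74 reads and 1 of its 2 introns, and the HNRNPH1 92 nt exon between HEK293 and HUES66 also rests on 1 intron.

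HEK293 skipped more of several HNRNPH1 and HNRNPH3 exons than any HUES66 library. The HNRNPH1 139 nt exon (chr5:179619269-179619407, minus strand, coding, length not divisible by 3) was included in 88.9% in HEK293 (95% Wilson interval 86.9 to 90.7), 93.2% in A375 (90.5 to 95.2) and 94.96% in wild-type HUES66 (94.1 to 95.7). The HNRNPH1 50 nt exon was at 83.1% (80.4 to 85.6), 91.1% (88.4 to 93.1) and 91.0% (89.9 to 92.0) in HEK293, A375 and HUES66. The HNRNPH3 139 nt exon (chr10:68337858-68337996, plus strand, coding, length not divisible by 3) was at 87.2% (84.2 to 89.7), 92.9% (88.2 to 95.8) and 92.9% (91.6 to 94.0). In these 3 exons HEK293 lay below the lowest of the 15 HUES66 libraries, at 94.3%, 89.4% and 92.9%. The B1 exon of HNRNPA2B1 was the other way, at 28.5% in HEK293 (26.4 to 30.8) against 16.5% to 26.6% in HUES66. The HNRNPA1, HNRNPK and HNRNPD 57 nt exons lay within the HUES66 range in both lines.

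**Figure D4:**
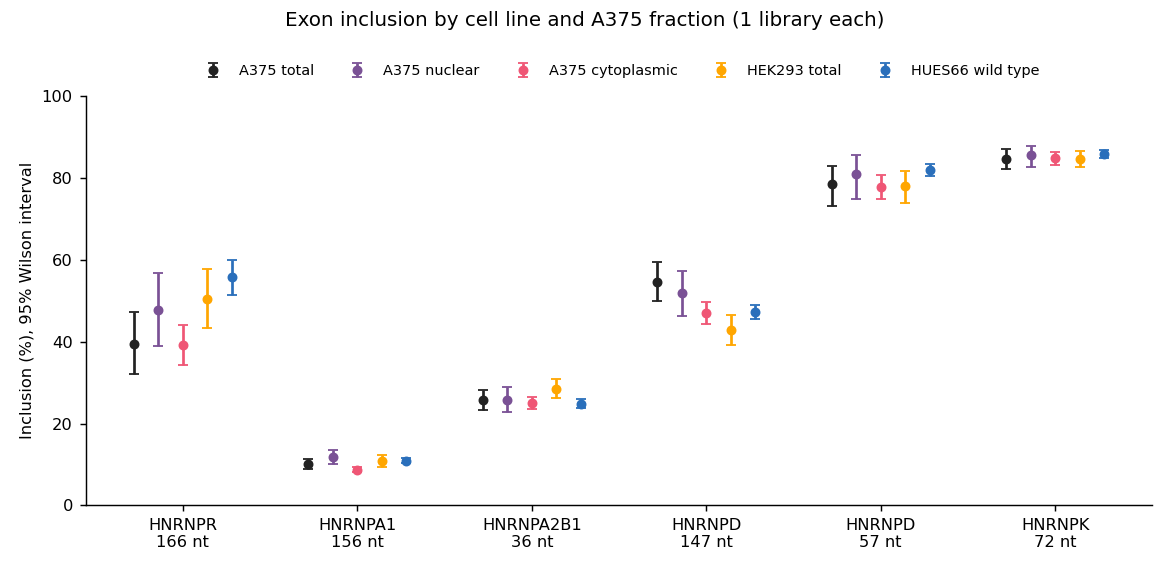
Inclusion (vertical axis, percent from 0 to 100, with 95% Wilson intervals that cover counting error only) of 6 hnRNP exons in the 5 libraries with no labelled treatment, 1 each. The HNRNPR 166 nt exon runs from 39.5% in A375 total RNA to 55.7% in HUES66, and the HNRNPK 72 nt exon has overlapping intervals in all 5.

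Between the A375 fractions, none of the 10 genes differed by 2-fold in CPM, while 41.9% of all genes did in either direction. HNRNPA1 was lowest in the nucleus relative to the cytoplasm, at 2510 against 4038 CPM (ratio 0.622, 95% exact interval 0.611 to 0.6325). HNRNPH1 was at 812 against 598 (ratio 1.359, 1.315 to 1.405) and HNRNPA2B1 at 1993 against 1622 (ratio 1.229, 1.203 to 1.255). HNRNPC, HNRNPD and HNRNPF had ratios of 0.823, 0.783 and 0.815. HNRNPDL, HNRNPK and HNRNPR had ratios of 1.04, 1.03 and 1.055, HNRNPH3 had 1.12, and HNRNPK's direction turned with TMM factors, to a log2 ratio just below 0. Only spliced reads were counted, so unspliced nuclear RNA is not in these values, and no marker list was fixed to check the separation of the fractions.

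Of 22 hnRNP events with at least 20 reads in both fractions, 1 differed by 10 points, the HNRNPH1 179 nt exon with 23 reads in the nucleus, against 15.5% of all events. The HNRNPR 166 nt exon was at 47.9% in the nucleus (95% Wilson interval 39.0 to 56.8) and 39.2% in the cytoplasm (34.4 to 44.2), so its intervals overlap. The HNRNPD 147 nt exon was at 51.9% (46.4 to 57.4) and 47.0% (44.3 to 49.8). The HNRNPA1 156 nt exon was at 11.7% (10.1 to 13.5) and 8.74% (8.1 to 9.4), and these intervals do not overlap. The HNRNPDL 105 nt exon, found only in annotated NMD transcripts, was at 10.6% (7.2 to 15.5) in the nucleus and 8.57% (6.8 to 10.7) in the cytoplasm, a difference not detectable at this depth. HNRNPA2B1 stood at 25.7% and 25.1%. Of the 22 events 16 were higher and 6 lower in the nucleus, and several of them share reads. Their median difference was 0.53 points, against 0.90 points over all events, so a median shift towards the nucleus was not particular to the hnRNP events. The share of all events that were higher in the nucleus is not given here. The largest difference towards the cytoplasm was in the HNRNPH1 92 nt exon, which rests on 1 intron, at 83.5% (77.7 to 88.0) in the nucleus and 90.2% (87.6 to 92.3) in the cytoplasm. The HNRNPH1 139 nt exon, which shares its reads, was at 91.0% (87.6 to 93.5) and 94.7% (93.3 to 95.9). The intervals of both exons overlap. Both HNRNPH1 pairs were lower in the nucleus too, by a difference of -2.55 points for the 90 nt exons and -2.99 points for those of 90 and 60 nt.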

How the data were processed

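The deposited junction tables hold, per the file headers and labels, raw counts of spliced reads per junction. Per the submitters' processing notes STAR 2.7.1 and SAMtools 1.9 were used, with hg38; the filters are not given in the sources used here. The authors' rMATS tables give an inclusion difference (other unit, control minus knockdown, a sign checked on 5776 exons matched to the junction counts, 83.3% of which had the opposite sign to knockdown minus control), and p-values and adjusted p-values, deposited by the authors; 69 per-library columns of these tables were not used.

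Introns, exons and sequences came from GENCODE 29 (GRCh38). Reads on introns of 1 gene name were summed per gene. Cassette exons of at most 1000 nt needed 2 inclusion introns and a skipping intron with the same outer ends. The 14 treated libraries were fitted with edgeR 4.0.16 (R 4.3.3; quasi-likelihood, TMM, filterByExpr); the design held the library set and the knockdown; events used paired columns of inclusion and other reads. SEs were derived from the F statistic. P-values were adjusted over all genes or events. The sets served as blocks because the labels name them. Deviations from the knockdown means correlated with a median r of 0.61 in 18 pairs of libraries of 1 set. In 55 pairs that differed in both set and knockdown the median r was -0.20. On simulated data, edgeR recovered 86.0% of 200 genes changed by a log2 of 1 in total KD among 13393. At 96 against 48 hr it recovered 92.0%. Of 200 of 7125 events changed by a log2 odds of 2 it recovered 34.5% and 48.5% in these comparisons. Apart from the added changes the simulations held no differences between library sets. Events of all depths were drawn, so these shares do not describe recovery of the deeper hnRNP events.

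Single libraries were compared with a pseudocount of 0.5 reads and at least 20 reads (genes, both libraries together; events, each library, with pooled inclusion of 2% to 98%). Alternatives used DESeq2 1.42.0 and limma 3.58.1 among others. Python 3.11.15 with scipy 1.17.1 gave intervals. The genes, the other family list and the tests were chosen with earlier results of these data known. All 10 genes were to be named, and of the events first those that passed, those with most reads and those with the largest differences. Results for 1 further gene of that list and 1 exon sequence are not reported here.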

Additional observations from a re-analysis of the deposited data

Results flagged for a closer look

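Each N-short KD and N-long KD group has 4 libraries, 1 per library set, so in each of the 10 genes and 25 events a group was searched for 1 library apart from the other 3 (gap to the nearest over the range of the group, above Dixon's 95% value). Of 70 such groups 6 had one. The rate of about 1 in 20 that belongs to this value assumes 4 like libraries. Here the library sets differed and some events share reads, so that rate does not apply. In HNRNPDL reads it was the N-short KD library of 48 hr, at 390 CPM against 557 to 575, and in HNRNPR reads the N-long KD library of 48 hr, at 343 CPM against 394 to 402. In the HNRNPH1 92 nt exon it was N-short KD 24 hr replicate 2, at 89.6% against 91.0% to 91.2%. In N-long KD it was 24 hr replicate 1 for 3 HNRNPH1 exons: 90.4% against 92.1% to 92.3% in the 92 nt exon, 94.8% against 95.9% to 96.1% in the 139 nt exon, which shares its reads, and 94.9% against 82.1% to 84.0% in the 179 nt exon, which has a mean of 33.4 reads. In HNRNPDL reads all 4 libraries of 48 hr lay at 366 to 390 CPM and all other treated libraries at 543 to 593, so the library apart lay with its set. In HNRNPR reads the 48 hr set had 342 to 358 CPM, which overlapped 24 hr replicate 1 at 355 to 394. Whether these follow the library set was not tested within these groups, since each set has 1 library of a group.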

How the results depend on the processing

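Of the 10 genes, 9 passed at 96 hr against 48 hr and 8 to 9 with a library left out, and with the replicate block (library set) replaced by time alone 8 did. In total KD the 1 gene became 0 without the replicate block and 2 with wild-type HUES66 added, and 0 to 1 with a library left out. Of the 25 events, 14 passed at 96 hr against 48 hr, 4 in limma, 13 without the replicate block, 10 with reads on both introns and 13 to 14 with a library left out. In total KD the 1 event became 0 in limma, with the smaller intron and without the replicate block, 4 with wild-type HUES66 added, and 0 to 4 with a library left out. N-long against N-short KD gave 0 to 1 events with a library left out. The other knockdown comparisons stayed at 0 in the alternatives run. Of the 25 single calls, each a gene or event in 1 comparison, 12 kept direction and threshold in every alternative, and of 499 alternatives 466 kept both, 32 lost the threshold and 1 reversed: the HNRNPH1 pair of 90 and 60 nt, at 1.85 with the smaller intron. The causes were not tested.

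For single libraries, a threshold of 1.5-fold gave 1 gene between the A375 fractions, 2 between A375 and HEK293, 8 between A375 and HUES66 and 4 between HEK293 and HUES66, where TMM factors gave 2. A threshold of 5 points gave 3, 7, 7 and 11 events in the same comparisons. The shares of all genes and events at these looser thresholds are not given here, so these counts show only how far the threshold matters. At least 50 reads gave 0 events between fractions, the smaller intron 0 between HEK293 and HUES66, and the 3 summed controls in place of wild-type HUES66 gave 6 between A375 and HUES66. Counting error limits events with few reads, such as the HNRNPH1 179 nt exon.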
